A study of Mus musculus with 16 samples.

Results

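Chondroitin sulfate proteoglycans, tenascins and the molecules that bind them are a set of 10 genes among the 24411 gene symbols counted in mouse spinal cord by RNA sequencing. The set was chosen by gene symbol alone: the lectican core proteins Acan, Bcan, Ncan and Vcan, the transmembrane core proteins Cspg5 and Ptprz1, the tenascins Tnc and Tnr, the link protein Hapln1 and the receptor phosphatase Ptprs. All 10 had a mean level above 1 TPM (a level scaled for gene length and library size) in at least 1 condition and so were among the 16091 genes tested. The libraries came from 16 female C57BL/6J mice. In the SCI + Vehicle group (n = 7) and the SCI + Atorvastatin group (n = 7), mice aged 12 wk were anesthetized with ketamine and xylazine, and the thoracic cord was compressed laterally to 0.25 mm. From 2 wk after injury they received vehicle (DMSO, PEG 400 and Tween 80 in saline) or atorvastatin at 10 mg/kg in that vehicle, daily for 4 wk. A 5 mm length of cord around the lesion was taken 6 wk after injury. The Uninjured Control group (n = 2) had the matching length of cord from mice labelled as uninjured and given no treatment, so neither the anesthesia and compression nor the vehicle is matched in these controls. By the study's methods the controls were also younger than the SCI mice when the tissue was taken, so age and injury cannot be told apart in the comparisons with them.

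Chondroitin sulfate proteoglycans are core proteins that carry chondroitin sulfate chains. In the central nervous system, lecticans bind hyaluronan, and link proteins stabilise that binding. Tenascin-R cross-links lecticans into perineuronal nets, the coats around certain neurons. After spinal cord injury the same class of molecules is laid down around the lesion by reactive glia and stromal cells, where the chains act on receptors such as PTP sigma, the product of Ptprs, and are known to limit axon growth.

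The genome places each lectican gene beside a link protein gene. In GRCm38 coordinates (GENCODE annotation), Vcan on chromosome 13 (89655312 to 89742509, minus strand) ends 43.7 kb from Hapln1 (89539796 to 89611652, plus strand). Ncan on chromosome 8 (70093085 to 70120873, minus strand) lies 2.22 kb from Hapln4, Bcan on chromosome 3 (87987531 to 88000230, minus strand) 21.5 kb from Hapln2, and Acan on chromosome 7 (79053483 to 79115099, plus strand) only 2 bases from Hapln3 on the opposite strand. The other genes are at single locations: Tnc on chromosome 4 (63959785 to 64047015, minus strand), Tnr on chromosome 1 (159523769 to 159931729, plus strand), Ptprz1 on chromosome 6 (22875502 to 23052916, plus strand), Cspg5 on chromosome 9 (110243783 to 110262576, plus strand) and Ptprs on chromosome 17 (56412426 to 56476483, minus strand).

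The 250 bases just upstream of the RefSeq start (GRCm38.p6) are given for the 5 genes that passed the threshold in SCI + Vehicle vs. Uninjured Control, 4 higher and Ncan lower, because these are the genes the injury comparison turns on. They are written in the direction of transcription, and capitals mark matches on either strand to a GC box (GGGCGG) or a TATA box (TATAAA). The regions are chr4:64047016-64047265 for Tnc, chr13:89742513-89742762 for Vcan, chr6:22875252-22875501 for Ptprz1, chr13:89540386-89540635 for Hapln1 and chr8:70120845-70121094 for Ncan. The Ptprz1 and Hapln1 regions are on the plus strand and the other 3 on the minus strand. The Hapln1 region lies inside the GENCODE gene span given above, downstream of its start at 89539796. It is therefore upstream of the RefSeq start only. Tnc has 1 more RefSeq start, whose region is not printed.
Tnc: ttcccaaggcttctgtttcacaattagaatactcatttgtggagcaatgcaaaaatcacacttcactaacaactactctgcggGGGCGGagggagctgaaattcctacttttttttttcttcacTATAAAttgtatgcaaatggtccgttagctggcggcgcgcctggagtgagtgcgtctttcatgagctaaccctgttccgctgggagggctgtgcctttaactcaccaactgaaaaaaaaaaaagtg
Vcan: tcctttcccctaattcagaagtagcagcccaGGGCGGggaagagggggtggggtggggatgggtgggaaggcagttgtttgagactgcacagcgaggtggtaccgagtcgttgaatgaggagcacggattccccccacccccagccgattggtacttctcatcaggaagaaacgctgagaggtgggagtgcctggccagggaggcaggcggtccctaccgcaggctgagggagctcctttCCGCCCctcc
Ptprz1: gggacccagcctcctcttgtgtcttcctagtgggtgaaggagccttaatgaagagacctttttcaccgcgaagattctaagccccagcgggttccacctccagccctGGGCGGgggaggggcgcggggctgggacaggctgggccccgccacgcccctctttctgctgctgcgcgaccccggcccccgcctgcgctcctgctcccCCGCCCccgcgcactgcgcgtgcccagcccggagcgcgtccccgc
Hapln1: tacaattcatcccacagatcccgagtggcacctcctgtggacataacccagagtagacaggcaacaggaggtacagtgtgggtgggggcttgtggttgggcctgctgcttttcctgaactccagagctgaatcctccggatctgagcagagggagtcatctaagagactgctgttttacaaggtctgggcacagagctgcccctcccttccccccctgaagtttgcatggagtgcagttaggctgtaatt
Ncan: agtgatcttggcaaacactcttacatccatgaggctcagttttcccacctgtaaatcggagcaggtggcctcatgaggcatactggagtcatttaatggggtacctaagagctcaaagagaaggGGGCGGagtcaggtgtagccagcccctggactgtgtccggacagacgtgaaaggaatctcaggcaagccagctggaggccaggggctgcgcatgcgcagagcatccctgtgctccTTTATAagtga

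Among these 5 regions, Tnc and Ncan each held 1 TATA box and 1 GC box, Vcan and Ptprz1 each held 2 GC boxes and Hapln1 held no match. No match in these 5 overlapped another. An AP-1 motif (TGANTCA) and a STAT motif (TTCNNNGAA) were also searched and were found in none of the 11 upstream regions of the 9 members in the RefSeq table. For comparison, of 32851 upstream regions of the same length, 12.4% held the TATA box, 32.7% the GC box, 6.75% the AP-1 motif and 7.02% the STAT motif. The GC content was 44.8% for Tnc and 71.6% for Ptprz1, against a median of 52.4% over all regions.

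Library totals were 14823292 to 25579826 counts. The Uninjured Control libraries stood apart from the SCI libraries in several respects. They held 12732 and 12356 genes with a count, against 16399 to 19338 in the SCI mice. Of 3245 genes with a mean of 200 to 500 counts, 13.9% and 17.6% had a count of 0 in the controls, against at most 0.247% in any SCI mouse. The summed level of 10 liver genes was 7097 and 1309 TPM in the controls and at most 12.44 TPM in the SCI mice. Such differences between libraries cannot be told apart from injury in the comparisons with the controls. None of the 10 members was at 0 in any of the 16 mice, their counts running from 86 to 11861. The 15 neuron, 10 oligodendrocyte and 10 astrocyte markers were all counted in both controls and none was at 0 in a whole group. The labels call the samples of a group biological replicates, 1 mouse each. In bulk tissue, fewer cells of a type and less RNA per cell cannot be told apart.

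Levels of the 10 genes were first compared in TPM, which allows one gene to be set against another. Bcan, coding for the brain-specific lectican brevican, had the highest level in each group, with 245.14 and 255.15 TPM in the controls, a median of 244.7 TPM (171.86 to 279.27) in SCI + Vehicle mice and 216 TPM (163.08 to 255.43) in SCI + Atorvastatin mice. Ptprs came next, with medians of 169.5 TPM in SCI + Vehicle and 136.6 TPM in SCI + Atorvastatin mice, and its range overlapped that of Bcan in both SCI groups. Ptprz1, Cspg5 and Tnr followed with medians of 47.83 to 73.43 TPM in the SCI groups, Ptprz1 overlapping Cspg5 and Cspg5 overlapping Tnr in both, while Tnr lay above Vcan without overlap in SCI + Vehicle mice and overlapped it in SCI + Atorvastatin mice. Vcan (medians of 26.41 and 29.24 TPM), Ncan (21.26 and 20.63 TPM) and Tnc (11.36 and 13.99 TPM) formed the lower part of the order, again with overlapping neighbours. Hapln1 was lowest in every group, with medians of 6.3 TPM in SCI + Vehicle, 6.17 TPM in SCI + Atorvastatin and 2.03 and 4.21 TPM in the controls. Tnc at 3.32 and 3.48 TPM lay between the Hapln1 values of the controls, whereas in SCI + Atorvastatin mice the Tnc range lay above the Acan range and the Acan range above the Hapln1 range.

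**Figure D1:**
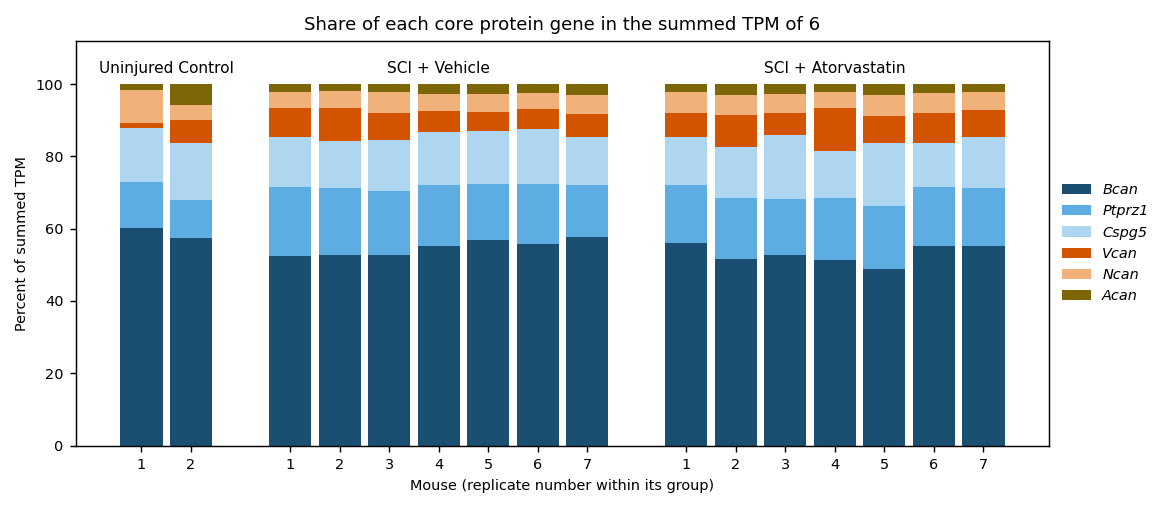
Share of each of 6 chondroitin sulfate core protein genes in their summed TPM (vertical axis, percent), with 1 stacked bar per mouse and the replicate number on the horizontal axis. Bcan holds the largest part of every bar, 48.98% to 60.12%, Ptprz1 a wider part in the SCI mice than in the controls, and the 2 controls differ from each other in Vcan, Ncan and Acan.

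As a share of the summed TPM of the 6 core protein genes, Bcan made up 60.12% and 57.55% in the controls, 52.34% to 57.63% in SCI + Vehicle and 48.98% to 56.17% in SCI + Atorvastatin mice. Ptprz1 made up 12.89% and 10.36% in the controls against 14.54% to 19.08% and 15.46% to 17.42% in the SCI groups. The share of Ptprz1 was thus higher in each of the 14 SCI mice than in either control. The Vcan share was 1.612% in Uninjured Control replicate 1 and 6.475% in replicate 2, which fell within the 5.212% to 8.895% of SCI + Vehicle mice. The sum itself was 424.4 and 426 TPM in the controls, with medians of 424.6 TPM in SCI + Vehicle and 393 TPM in SCI + Atorvastatin mice and both SCI ranges reaching across the control values.

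The first comparison, SCI + Vehicle vs. Uninjured Control, asked how injury 6 wk earlier altered these genes. Tnc rose the most, to 3.70 times the control level, Hapln1 to 2.51 times, Vcan to 1.90 times and Ptprz1 to 1.33 times, while Ncan fell to 0.54 of the control level. A gene was called at a Benjamini-Hochberg adjusted p below 0.05 in edgeR's quasi-likelihood test and a log2 fold change beyond 0.322 in either direction. By this rule 4 of 10 members were higher and 1 was lower. Among all genes tested, 19.8% were called higher, 9.55% lower and 29.4% in either direction. An unadjusted p below 0.05 was seen for 7 members and for 41% of all genes, and the median log2 fold change was 0.29 over the members and 0.17 over all genes.

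**Figure D2:**
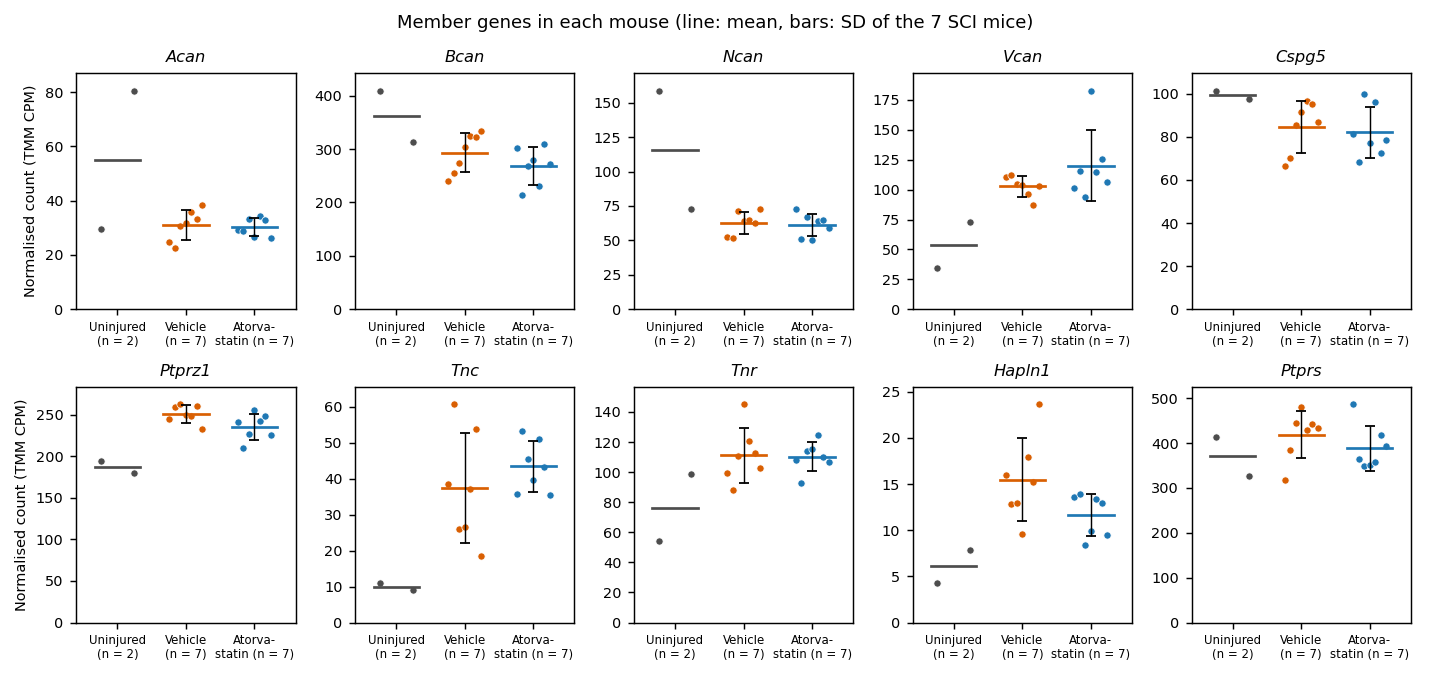
Normalised count (TMM CPM, vertical axis starting at 0) of each member gene, with 1 point per mouse in each of the 3 groups, a line at the mean and bars for the SD of the 7 SCI mice. Tnc, Ptprz1, Vcan and Hapln1 lie above both controls in all SCI mice, while the control values of Acan, Ncan, Vcan and Tnr lie far apart.

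Among the lecticans, only Vcan was higher. Vcan encodes versican, a lectican made by oligodendrocyte precursors and by cells of connective tissue. Its normalised count (CPM, counts scaled to library size with TMM normalisation) was 110.9, 112.4, 105.1, 104.1, 96.76, 87.31 and 103.1 in SCI + Vehicle replicates 1 to 7 and 34.35 and 72.62 in the controls. Every SCI + Vehicle mouse exceeded both controls, and the controls differed from each other by a factor of 2.11, more than the 1.29 that separated the highest from the lowest SCI + Vehicle mouse. The log2 fold change was 0.93 (SE 0.236, adjusted p = 0.0138, edgeR). It was 0.49 without Uninjured Control replicate 1 and 1.57 without replicate 2. Leaving out a control removes the spread between controls from the fit, so a call there is no check of Vcan. In TPM the gap was not seen: Uninjured Control replicate 2 had 27.58 TPM for Vcan, within the 24.24 to 35.13 TPM of SCI + Vehicle mice, and limma on log2(TPM + 1) gave an adjusted p of 0.0949.

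Ncan encodes neurocan, a lectican of neurons and astrocytes. It had 52.33, 51.64, 71.09, 63.96, 65.06, 62.81 and 72.44 CPM in the SCI + Vehicle mice and 158.7 and 72.8 CPM in the controls. All 7 mice were below both controls, but the second control was above the highest SCI + Vehicle mouse by less than 1 CPM. The log2 fold change was -0.90 (SE 0.237, adjusted p = 0.0168). Without Uninjured Control replicate 1 it was -0.23 and no longer called (adjusted p = 0.375). In TPM the second control, at 17.16, lay inside the SCI + Vehicle range of 14.97 to 24.34.

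Acan, coding for aggrecan, the main lectican of perineuronal nets and of cartilage, was not called in this comparison. Its CPM was 24.95, 22.64, 30.75, 31.91, 35.88, 33.12 and 38.4 in the SCI + Vehicle mice and 29.42 and 80.56 in the controls. One control thus lay in the middle of the SCI + Vehicle values and the other far above them. The log2 fold change of -0.84 (SE 0.316, adjusted p = 0.0700) became -1.39 without Uninjured Control replicate 1 and 0.07 without replicate 2. Bcan was also not called, with 240.1 to 334.2 CPM (median 303.1) in SCI + Vehicle mice against 409.2 and 313.8 CPM and a log2 fold change of -0.31 (SE 0.152, adjusted p = 0.146).

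**Figure D3:**
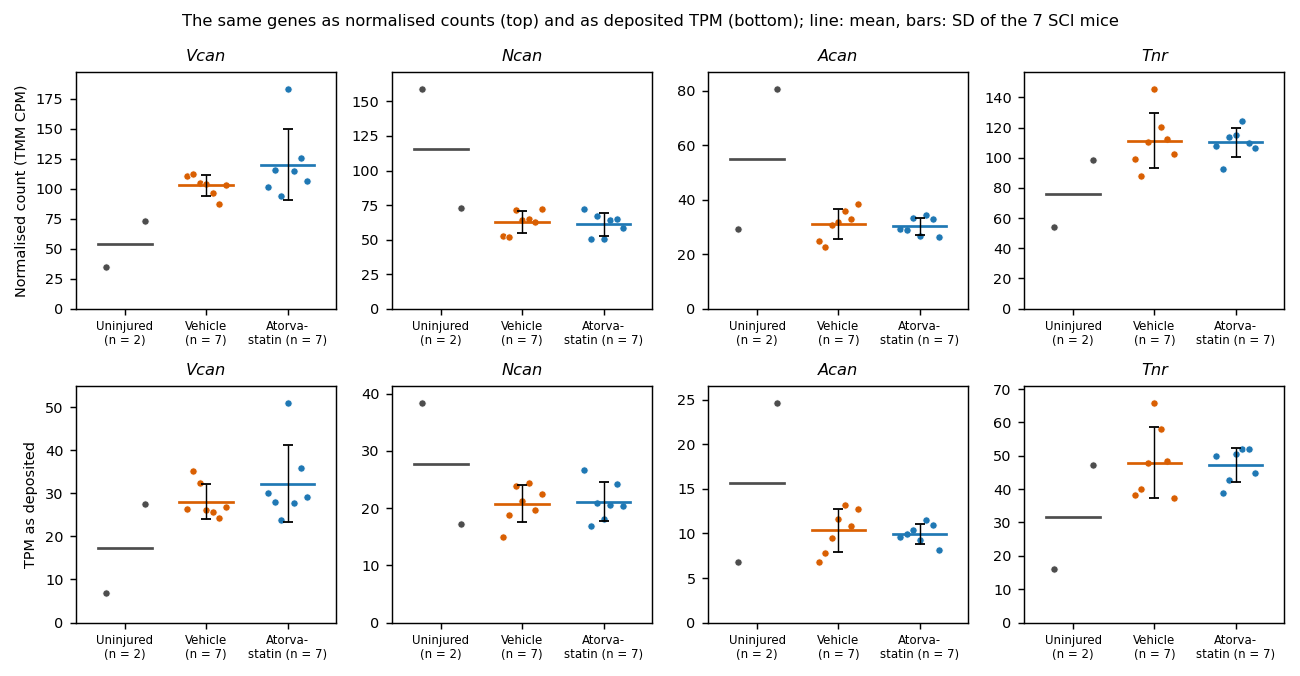
Vcan, Ncan, Acan and Tnr as normalised counts (top row, TMM CPM) and as the deposited TPM (bottom row) in each mouse of the 3 groups, with a line at the mean and bars for the SD of the 7 SCI mice. The 2 controls stand apart from each other on both scales, and in TPM the second control falls among or near the SCI mice for Vcan, Ncan and Tnr.

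Of the transmembrane core proteins, Ptprz1 was called and Cspg5 was not. Ptprz1 encodes a receptor-type tyrosine phosphatase of glia whose secreted form is phosphacan. Its CPM was 244.2, 258.9, 262.7, 249.4, 248.2, 260 and 232.6 in the SCI + Vehicle mice and 194.4 and 179.5 in the controls. The groups did not overlap, in CPM or in TPM (61.74 to 75.94 against 54.7 and 44.13). The rise was modest but close in all mice (log2 fold change 0.41, SE 0.0956, adjusted p = 0.00901). Cspg5, which encodes neuroglycan C of neurons, was at 66.3 to 96.67 CPM (median 86.81) against 101.4 and 97.63 CPM. All SCI + Vehicle mice were below both controls, but the log2 fold change of -0.25 (SE 0.16) was not called (adjusted p = 0.271).

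Of the tenascins, Tnc was called and Tnr was not. Tenascin-C is an adhesion-modulating glycoprotein of developing and injured tissue. Tnc had 38.49, 60.81, 26.05, 26.59, 37.24, 53.98 and 18.61 CPM in the SCI + Vehicle mice and 11.07 and 8.941 CPM in the controls. Even the lowest SCI + Vehicle mouse exceeded the higher control, and the highest was 3.27 times the lowest. The log2 fold change was 1.89 (SE 0.458, adjusted p = 0.0110), and Tnc stayed past the threshold without any single SCI + Vehicle mouse. When each mouse was left out in turn, controls included, the log2 fold change was 1.73 to 2.05. Tnr, encoding the tenascin of oligodendrocytes and perineuronal nets, was at 87.83 to 145.3 CPM (median 110.5) against 54.07 and 98.49 CPM. The second control overlapped the SCI + Vehicle mice, and the log2 fold change was 0.53 (SE 0.234, adjusted p = 0.112). Without that control it was 1.03.

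Hapln1 encodes a link protein that stabilises the binding of lecticans to hyaluronan. It had 15.94, 12.88, 13, 9.546, 17.96, 15.24 and 23.68 CPM in the SCI + Vehicle mice and 4.325 and 7.897 CPM in the controls. The groups did not overlap, but the values rest on few reads, 86 and 174 counts in the controls. The log2 fold change was 1.33 (SE 0.442, adjusted p = 0.0444), and in 7 of the 9 fits that left out 1 mouse it was no longer called. Ptprs was at 317.7 to 480.3 CPM (median 434.1) against 414.1 and 326.3 CPM, the SCI + Vehicle mice lying on both sides of the controls (log2 fold change 0.17, SE 0.155, adjusted p = 0.459).

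In normalised counts, all SCI + Vehicle mice exceeded both controls for 4 members and were below both for 2, against 24.8% and 10.7% of all genes tested, or 35.6% in either direction. In TPM, 2 members, Tnc and Ptprz1, were above both controls and 0 were below, against 26.3% and 6.67% of all genes, or 33% in either direction.

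**Figure D4:**
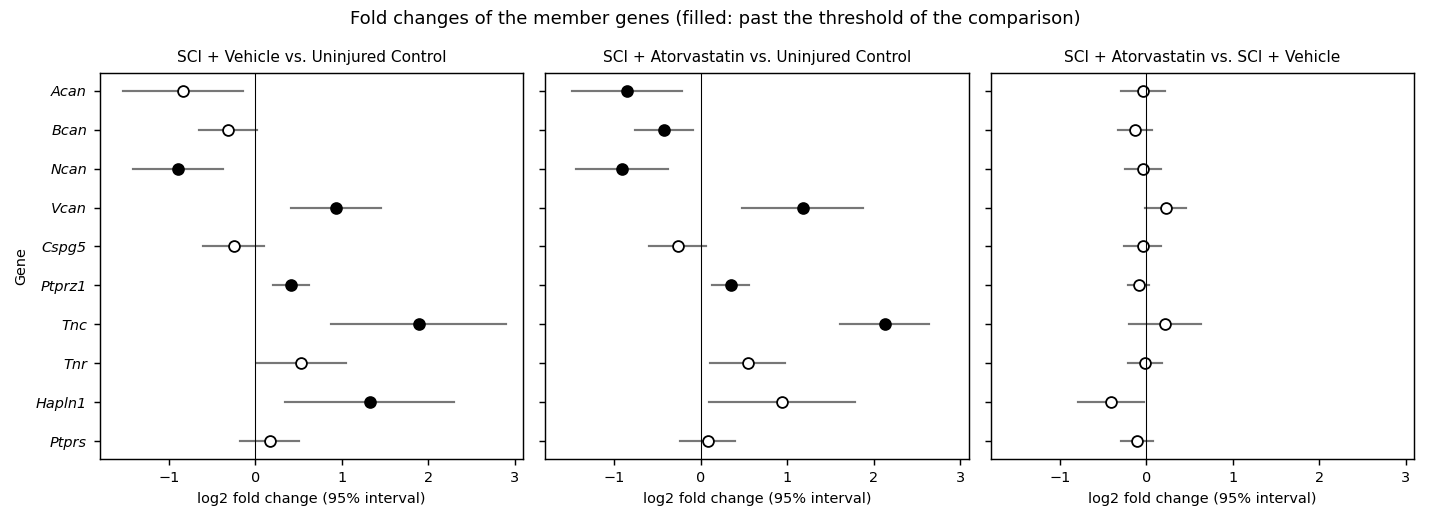
Log2 fold change (horizontal axis) with its 95% interval for each member gene in the 3 comparisons, filled where the gene passed the threshold of that comparison. Tnc has the highest fold change against the Uninjured Control group in both SCI groups, and in SCI + Atorvastatin vs. SCI + Vehicle no gene passed.

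The second comparison, SCI + Atorvastatin vs. Uninjured Control, uses the same 2 control mice, so its values are given beside the first and are not a separate check of it. Here 3 of 10 members were called higher and 3 lower, against 24.9% and 14% of all genes tested and 38.9% in either direction (39.3% at the adjusted p alone). An unadjusted p below 0.05 was seen for 8 members and for 47.8% of all genes. The median log2 fold change was 0.21 over the members and over all genes.

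Tnc had 35.69, 53.36, 45.59, 39.75, 50.95, 43.36 and 35.44 CPM in SCI + Atorvastatin replicates 1 to 7. The lowest of these was above the higher control by a factor of more than 3, and the log2 fold change was 2.13 (SE 0.232, adjusted p = 1.0e-04). Vcan had 101.5, 115.9, 93.67, 182.7, 115, 125.4 and 106.4 CPM. Replicate 4 was the highest of all 16 mice. The log2 fold change of 1.18 (SE 0.312, adjusted p = 0.0132) ranged from 0.74 to 1.81 when each mouse of the comparison was left out in turn. Vcan stayed called when any single SCI + Atorvastatin mouse was left out. Ptprz1, at 210.3 to 255.1 CPM (median 241.1), was above both controls in all 7 mice. Its log2 fold change of 0.34 (SE 0.0942, adjusted p = 0.0155) was near the fold limit, and the call was lost without SCI + Atorvastatin replicate 4 or without Uninjured Control replicate 2.

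The lower members were Ncan, Acan and Bcan. Ncan was at 50.46 to 72.45 CPM (median 64.26), below both controls in all 7 mice, with a log2 fold change of -0.91 (SE 0.238, adjusted p = 0.0122) that became -0.24 and was not called without Uninjured Control replicate 1. Acan was at 26.29 to 34.38 CPM (median 29.16), on both sides of the 29.42 CPM of the first control and below the 80.56 CPM of the second. Its log2 fold change was -0.85 (SE 0.285, adjusted p = 0.0369), the call was lost in 8 of the 9 fits that left out 1 mouse, and without the second control the value was 0.04. Bcan was at 213.4 to 309 CPM (median 272.7), below both controls in all 7 mice (log2 fold change -0.42, SE 0.15, adjusted p = 0.0470), and its call was lost in 6 of those 9 fits.

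The other 4 members were not called. Hapln1 had 13.55, 13.95, 8.393, 9.969, 13.34, 12.9 and 9.441 CPM. All 7 mice were above both controls, yet the log2 fold change of 0.94 (SE 0.379) gave an adjusted p of 0.0745. Tnr was at 92.86 to 124.5 CPM (median 110), with 6 of 7 mice above both controls, a log2 fold change of 0.54 and an adjusted p of 0.0508. Cspg5 (log2 fold change -0.27, adjusted p = 0.180) and Ptprs (0.08, adjusted p = 0.699) overlapped the controls. In CPM, 4 members were above both controls in all 7 mice and 2 were below, against 29.8% and 14.2% of all genes tested, or 44% in either direction. In TPM, 2 members, Tnc and Ptprs, were above both controls in all 7 mice and 0 were below, against 32.3% and 8.91% of all genes, or 41.2% in either direction. Ptprs was above by a narrow gap of 130.4 TPM in the lowest mouse against 122.57 TPM in the higher control.

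The third comparison, SCI + Atorvastatin vs. SCI + Vehicle, asked whether atorvastatin altered these genes after injury. The rule here was an unadjusted p below 0.001 with the same limit on the fold change. None of the 10 members passed it in edgeR, against 0.106% of all genes tested (0.087% higher and 0.0186% lower), and 1 had an unadjusted p below 0.05, against 7.03% of all genes. DESeq2 also called 0 members. At an adjusted p below 0.05, edgeR called 0 of the 16091 genes. The ranges of the 2 groups overlapped for all 10 members, in CPM and in TPM, while 0.087% of all genes were without overlap in CPM (0.0559% higher and 0.0311% lower) and 0.0621% in TPM (0.0373% higher and 0.0249% lower).

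The member with the lowest p was Hapln1, which was lower with atorvastatin at 0.753 of the SCI + Vehicle level (95% interval 0.577 to 0.983, unadjusted p = 0.0380, adjusted p = 0.693, edgeR). None of the 7 SCI + Atorvastatin mice exceeded the SCI + Vehicle median of 15.24 CPM, and 2 of them were below the lowest SCI + Vehicle mouse. Vcan was at 1.17 times the SCI + Vehicle level (95% interval 0.990 to 1.38, unadjusted p = 0.0646, adjusted p = 0.728), with 4 of 7 mice above the highest SCI + Vehicle mouse. Without SCI + Atorvastatin replicate 4 the Vcan log2 fold change fell from 0.22 to 0.09. Tnc was at 1.16 times (95% interval 0.872 to 1.55, adjusted p = 0.862). For the 8 members other than Tnc and Hapln1, the 95% intervals lay between 0.7995 and 1.379 times the SCI + Vehicle level. These are the outermost bounds over the 8 genes. For each gene, differences inside its own interval are not excluded by these 14 mice.

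The members also differed in how far mice of 1 group lay apart. In SCI + Vehicle mice the coefficient of variation (SD over mean of CPM) was 41.2% for Tnc and 29.1% for Hapln1, but 4.23% for Ptprz1 and 8.34% for Vcan. In SCI + Atorvastatin mice it was 16.2% for Tnc, 19.7% for Hapln1, 6.61% for Ptprz1 and 24.6% for Vcan, the latter with replicate 4 at 182.7 CPM. Whether these spreads differ between the treatments was not tested. Over the 14 SCI mice, with each group centred on its own mean, 45 pairs of members were correlated on log2 CPM. The correlation was positive for 26 pairs and negative for 19, and no pair reached an adjusted p below 0.05 in a permutation test within groups, with Pearson's r or Spearman's rho. The pairs with the lowest adjusted p for r, 0.0922, were Acan with Ncan, Acan with Cspg5 and Cspg5 with Tnr. Acan with Ncan had r = 0.739 and rho = 0.67 (permutation p = 0.0045 and 0.014, adjusted p = 0.0922 and 0.158), with r = 0.576 within SCI + Atorvastatin and 0.884 within SCI + Vehicle mice, and r = 0.571 without the 2 mice farthest from the median of Acan. Acan with Cspg5 had r = 0.739 and rho = 0.785 (permutation p = 0.00537 and 0.00244, adjusted p = 0.0922 and 0.0871), with r = 0.576 and 0.859 within the same groups and 0.562 without those 2 mice. Cspg5 with Tnr had r = 0.703 and rho = 0.749 (permutation p = 0.00615 and 0.00387, adjusted p = 0.0922 and 0.0871), with r = 0.739 and 0.716 within the groups and 0.743 without the 2 mice farthest from the median of Cspg5. All values share library and normalisation.

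Genes that make, bind and remove chondroitin sulfate and hyaluronan were followed in lists around these 10 genes, some of which hold members. Counts in every list are to be read beside the shares of all genes tested. These were 19.8% higher and 9.55% lower in SCI + Vehicle vs. Uninjured Control, and 24.9% and 14% in SCI + Atorvastatin vs. Uninjured Control. Among 15 other chondroitin sulfate core proteins (Cspg5 and Ptprz1 included), 5 were higher and 4 lower in SCI + Vehicle vs. Uninjured Control, and 7 were higher and 4 lower in SCI + Atorvastatin vs. Uninjured Control. A count of 0 in a control was found for 1 of the higher genes in each comparison. Cd44, the hyaluronan receptor that can carry chondroitin sulfate, was at 78.56 to 119.9 CPM in SCI + Vehicle and 104.2 to 144.4 CPM in SCI + Atorvastatin mice against 16.7 and 17.4 CPM in the controls, a rise to 6.17 and 7.10 times (adjusted p = 2.8e-05 and 4.1e-06). Cspg4, coding for the NG2 proteoglycan of oligodendrocyte precursors and pericytes, rose to 7.81 and 8.97 times (adjusted p = 0.0138 and 0.00593) over controls with only 25 and 271 counts. The testican genes Spock1, Spock2 and Spock3 and the syndecan gene Sdc3 were lower in both comparisons, Spock2 at 0.552 and 0.495 of the control level (adjusted p = 0.00403 and 8.3e-05). Dcn, coding for decorin and also one of the fibroblast markers, was at 5.92 times the control level in SCI + Atorvastatin mice (adjusted p = 0.0103) and at 2.82 times in SCI + Vehicle mice, where it was not called (adjusted p = 0.320), and between the treatments its difference did not pass the threshold (2.06 times, unadjusted p = 0.0263).

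**Figure D5:**
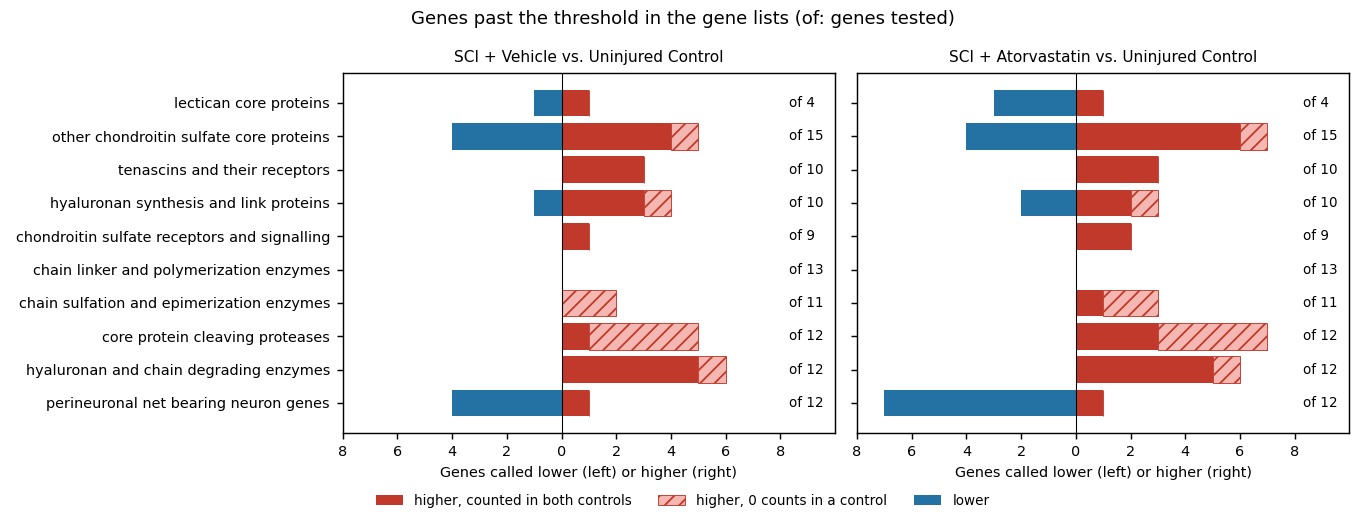
Number of genes called higher (right) or lower (left) in each gene list in the 2 comparisons with the Uninjured Control group, with the number tested at the right and hatching for genes that had a count of 0 in a control. In both panels no gene of the chain linker and polymerization list was called.

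Of 10 tenascins and tenascin receptors tested, 3 were higher and 0 lower in each of the comparisons with the Uninjured Control group. Among all genes, 19.8% and 24.9% were called higher. Besides Tnc these were Itgb1, the integrin beta chain (1.78 and 2.13 times, adjusted p = 0.0162 and 6.9e-04), and Nfasc, the neurofascin gene (1.40 and 1.39 times, adjusted p = 0.0107 and 0.0115). Of 10 genes for hyaluronan synthesis and link proteins, 4 were higher and 1 lower in SCI + Vehicle and 3 higher and 2 lower in SCI + Atorvastatin mice. In each comparison 1 of the higher genes had a count of 0 in a control. Hapln2, the link protein gene at nodes of Ranvier, was at 95.24 to 130.6 CPM in SCI + Vehicle mice against 75.52 and 83.09 CPM (1.499 times, adjusted p = 0.0111), and 1.37 times the control level in SCI + Atorvastatin mice (adjusted p = 0.00536). Hapln4, whose gene lies beside Ncan, was lower in SCI + Atorvastatin mice (0.622 of the control level, adjusted p = 0.0106) and not called in SCI + Vehicle mice (0.690, adjusted p = 0.133). Hapln3 had at most 36 counts in any mouse and was not called. Among 9 receptors and signalling genes tested, Rock1, a kinase downstream of RhoA, was higher in both comparisons (1.70 and 1.85 times, adjusted p = 0.0130 and 0.00228) and Lrp1, a large endocytic receptor, was called in SCI + Atorvastatin mice (1.33 times, adjusted p = 0.0378) and not in SCI + Vehicle mice (1.22 times, adjusted p = 0.217).

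The enzymes that build the chains were set beside the shares of all genes tested. These were 19.8% and 24.9% called higher and 9.55% and 14% called lower in SCI + Vehicle and SCI + Atorvastatin mice. None of 13 chain linker and polymerization enzymes was called against the Uninjured Control group in either SCI group by edgeR. In each comparison 1 of them had an unadjusted p below 0.05. Among all genes tested, 41% did in SCI + Vehicle and 47.8% in SCI + Atorvastatin mice. Of 11 sulfation and epimerization enzymes tested, 2 were called higher in SCI + Vehicle mice and 3 in SCI + Atorvastatin mice. Of these, Chst7 had a count of 0 in both controls and Dse in 1 of them, so no fold is given, and Chst15, a sulfotransferase that makes disulfated chondroitin sulfate, was called in SCI + Atorvastatin mice (1.47 times, adjusted p = 0.0321).

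Of 12 genes in the list of proteases that cleave core proteins, which also holds the protease inhibitor gene Timp3, 5 were higher in SCI + Vehicle and 7 in SCI + Atorvastatin mice and 0 were lower, beside the 19.8% and 24.9% of all genes called higher. Timp3 was one of the 7 (1.74 times, adjusted p = 9.9e-04), and 4 of them, Adamts8, Adamts15, Mmp2 and Mmp3, had 0 counts in both controls. Mmp2, a gelatinase gene, had 8.774 to 28.14 CPM in SCI + Vehicle mice. Adamts9, counted in both controls, was at 3.14 and 3.60 times the control level (adjusted p = 0.00531 and 0.00223). Of 12 hyaluronan and chain degrading enzymes tested, 6 were higher in each comparison and 0 lower, and 5 of the 6 were counted in both controls. Gusb, the lysosomal beta-glucuronidase gene, was at 6.74 times the control level in SCI + Vehicle mice (adjusted p = 7.2e-04). Tmem2, coding for a cell surface hyaluronidase, was the gene of these lists that passed the threshold between the treatments. It had 27.58 to 36.7 CPM in SCI + Atorvastatin, 16.14 to 28.87 CPM in SCI + Vehicle mice and 8.079 and 12.57 CPM in the controls, and was 1.44 times higher with atorvastatin (unadjusted p = 6.3e-04, adjusted p = 0.680, edgeR). The other list genes with an unadjusted p below 0.05 between the treatments, none of which passed the threshold, included Col12a1, Dcn, Tnxb, Itgb1, Itih5, Chst7, Dse, Ust, Adamts5, Mmp14 and Hexa with higher fitted levels under atorvastatin and Hapln1, Itih3, Prph, Nefh and Chat with lower ones. Among these, Itih3, a heavy chain of the hyaluronan-binding inter-alpha-trypsin inhibitor, was at 0.795 of the SCI + Vehicle level (unadjusted p = 0.00364, adjusted p = 0.680), and Dse, a dermatan sulfate epimerase, was at 1.56 times (unadjusted p = 0.00789, adjusted p = 0.680).

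Of 12 genes of neurons that bear perineuronal nets, 4 were lower and 1 higher in SCI + Vehicle and 7 lower and 1 higher in SCI + Atorvastatin mice. Among all genes tested, 9.55% and 14% were called lower and 19.8% and 24.9% higher. The lower ones included Pvalb, the parvalbumin gene, which muscle also expresses (0.550 of the control level in SCI + Vehicle, adjusted p = 0.0154) and the motor neuron gene Slc18a3, the vesicular acetylcholine transporter (0.368, adjusted p = 0.00427). The higher one, Spp1, coding for osteopontin, is also made by activated microglia and rose to 3.98 and 4.54 times (adjusted p = 8.6e-05 and 2.6e-05).

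Marker genes of several cell types moved in the comparisons with the Uninjured Control group. Their counts stand beside 19.8% and 24.9% of all genes called higher and 9.55% and 14% called lower in SCI + Vehicle and SCI + Atorvastatin mice. Of 15 neuron markers, 9 were lower in SCI + Vehicle and 12 in SCI + Atorvastatin mice, with summed levels of 8202 to 12210 TPM and 7474 to 10400 TPM against 12220 and 14620 TPM in the controls. The astrocyte list (10 genes, 4 higher and 1 lower, then 4 higher and 3 lower) summed to 9868 to 12310 TPM and 10850 to 12380 TPM against 5455 and 6439 TPM. In each comparison 5 of these astrocyte genes had a higher fitted level and 5 a lower one. Their median log2 fold change was 0.0661 and 0.0577, against 0.171 and 0.2058 over all genes. The oligodendrocyte precursor list had 4 of 10 genes higher and 0 lower in SCI + Vehicle mice, 5 higher and 1 lower in SCI + Atorvastatin mice, and summed to 283.1 to 420.5 TPM and 342.2 to 437 TPM against 312 and 249.7 TPM, with Matn4 at 0 in both controls. The microglia or macrophage list had 7 and 8 of 10 genes higher and summed to 3323 to 4712 TPM and 4018 to 5625 TPM against 282.8 and 471.9 TPM. In each comparison 2 of its higher genes had a count of 0 in a control. The fibroblast list had 1 and 7 of 10 genes higher and summed to 139.3 to 955 TPM and 722.2 to 1504 TPM against 194.7 and 217.4 TPM. The other lists were the oligodendrocyte list (1 higher and 1 lower, then 1 higher and 3 lower of 10), the endothelium list (0, then 2 higher of 10), the Schwann cell list (1 higher, then 1 higher and 2 lower of 8), the liver list (10 of 10 lower in both) and the skeletal muscle list (1 higher and 1 lower, then 1 lower of 8). The Schwann cell and muscle genes called higher had a count of 0 in a control. The muscle list reached 3585 TPM in SCI + Atorvastatin replicate 2, against 201.1 and 271.9 TPM in the controls. Between the treatments 6 of 10 fibroblast genes had an unadjusted p below 0.05, all 10 had a higher fitted level with atorvastatin, and none passed the threshold. The part of these cell types in the changes of Tnc, Vcan, Ptprz1, Hapln1, Ncan, Acan and Bcan was not tested.

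Aggrecan, versican and Hapln1 are also made in cartilage, and cartilage and bone genes were therefore read beside them. The 10 genes summed to 5.69 to 124.7 TPM in SCI + Vehicle, 10.07 to 88.46 TPM in SCI + Atorvastatin mice and 1.91 and 13.99 TPM in the controls, and 7 of them were at 0 in both controls. Of the 7 tested, 3 were called higher in SCI + Vehicle and 4 in SCI + Atorvastatin mice, all with a count of 0 in a control. The shares over all genes were 19.8% and 24.9%. Col2a1, the main cartilage collagen, was at 0.89 to 5.92 TPM in SCI + Vehicle, 0.82 to 5.91 TPM in SCI + Atorvastatin mice and 1.61 and 1.91 TPM in the controls, with Matn1 at no more than 1.76 TPM in any mouse. Their part in the values of these members was not tested.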

How the data were processed

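Per the labels, reads were trimmed (Trimmomatic 0.38), aligned to mm10 (STAR 2.5.4b) and assigned to genes (RSEM 1.3.1). The authors deposited raw counts, with no normalization, and TPM, which they scaled for gene length, for 24411 gene symbols in 1 column per mouse. The step that made whole-number counts, and whether counting used strand, are not given in the sources used here. The library kit is stranded, and Acan and Hapln3 lie 2 bases apart on opposite strands.

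Mice were grouped by their labels. The 16091 genes whose mean TPM exceeded 1 in any condition were tested for each pair of conditions with edgeR 4.0.16 in R 4.3.3, using TMM scaling, the quasi-likelihood test and Benjamini-Hochberg adjustment over all 16091. CPM values are TMM-normalised, and intervals are 95% intervals of the fit. Correlations used 100000 permutations within groups. Alternatives used DESeq2 1.42.0, limma 3.58.1, other gene filters, thresholds and scalings, a replicate block and leaving out each mouse. The fits were tested on simulated data drawn with the spread of the SCI mice, so that test does not cover the spread between the controls. Figures used matplotlib 3.10.9.

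Named genes were all members, Hapln2, Hapln3 and Hapln4, up to 3 genes per direction and pathway list with the smallest p among those called against the Uninjured Control group, and pathway genes with an unadjusted p below 0.05 between treatments. Cspg4, Spock3, Adamts9, Mmp3, Dcn against the controls, Matn4, Col2a1 and Matn1 fall outside this rule and were added with their values known. The members, the 10 pathway lists and the 11 cell type lists were chosen with earlier results of these data known. One list gene that the rule names is not reported here.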

Additional observations from a re-analysis of the deposited data

Results flagged for a closer look

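Vcan in SCI + Atorvastatin replicate 4 stood apart from the other mice of its group, at 182.7 CPM with the next highest mouse at 125.4 CPM, a gap of 0.644 of the whole range. Of the 20 groups of 7 mice examined (10 genes in 2 SCI groups) this was the 1 set apart in this way, and chance gives about 1 in 20. Without this mouse, Vcan was still called in SCI + Atorvastatin vs. Uninjured Control (log2 fold change 1.04), and between the treatments its log2 fold change was 0.09 in place of 0.22.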

How the results depend on the processing

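Against the Uninjured Control group, 5 members were called in SCI + Vehicle and 6 in SCI + Atorvastatin mice. These became 1 and 1 at an adjusted p below 0.01 (Ptprz1, then Tnc), 2 and 1 with limma on log2(TPM + 1), 2 and 2 on log2(TPM + 0.1), 0 and 0 with voom and group quality weights, and 0 and 0 with a replicate block. That block sets aside SCI mice whose replicate number no control shares, which leaves too few mice to judge calls against the controls. Leaving out each mouse gave 4 to 7 and 3 to 6 members, the 3 without SCI + Atorvastatin replicate 4. DESeq2 called 6 and 7, and a fit of all 3 groups 7 and 8, with more genes called overall (6000 and 7207, then 6586 and 7126). Between the treatments 0 members were called under each setting. Covarying pairs were 0, and 4 with log2(TPM + 1). The cause of the other changes was not tested.

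Over all genes, 4726, 6260 and 17 were called in the 3 comparisons. With the replicate block these were 16, 0 and 8, and with voom 132, 145 and 8. Against the controls they were 4452 and 6316 with log2(TPM + 1), and 4921 and 6727 with log2(TPM + 0.1). Against the controls, a mean TPM above 1 in every condition gave 2398 and 3710, at least 10 counts in every mouse 2862 and 4040, an adjusted p below 0.01 2541 and 4138, and leaving out either control 7673 to 7806 and 9707 to 9826. Calls in SCI + Vehicle mice were 3190 higher and 1536 lower, against 1331 and 1531 under that minimum of 10 counts and 3763 and 689 with log2(TPM + 1). Between the treatments DESeq2 called 37, all 3 groups in one fit 1, at least 10 counts 10, and leaving out each mouse 5 to 32. Replicate numbers were not found to pair the samples (same-number correlations of -0.15 to 0.087, none the best of its row). On the TPM scales the median log2 fold change of all genes rose by 0.3156 to 0.4504 against the controls. Between the treatments it rose by 0.0182 and 0.0226. Other settings moved this median as well. In SCI + Atorvastatin vs. Uninjured Control the shift was -0.2406 with at least 10 counts in every mouse. It was 0.4611 there when the TPM cut was dropped.

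Signs that turned were Ptprs in SCI + Vehicle vs. Uninjured Control (-0.0883 with the replicate block) and, when each mouse was left out, Acan in both comparisons with controls (-1.3852 to 0.0652 and -1.4042 to 0.0387) and Ptprs in SCI + Atorvastatin vs. Uninjured Control (-0.0899 to 0.264). Between the treatments these were Ncan (0.0253 and 0.0265 on the TPM scales, -0.0819 to 0.0048 leaving out each mouse), Tnr (0.0004 and 0.0008 on the TPM scales, 0.0089 with voom, -0.0644 to 0.0603 leaving out each mouse) and Acan (-0.1063 to 0.0149 leaving out each mouse). None of these was called between the treatments. With 2 controls, every comparison with them rests on the spread of the SCI mice and of 1 pair. Leaving out a control removes that pair's spread from the fit, so a call there is no check of a member.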
